A study of Mus musculus with 54 samples.

Results

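The glutamate receptor genes and the genes of the auxiliary subunits that travel with AMPA receptors were followed through 3 brain regions of mice with and without a gene trap in Mbd5. They were taken by name, 35 genes of the 47069 in the count table, and comprised 17 ionotropic subunits (4 AMPA, 1 delta, 5 kainate and 7 NMDA), 7 metabotropic receptors and 11 auxiliary subunits (6 Cacng, 2 cornichon and 3 Shisa genes). They lay on 16 chromosomes. Cortex, striatum and cerebellum were taken from each of 18 C57BL/6 mice at 8 weeks of age, 10 Mbd5+/GT and 8 WT littermates, giving 54 RNA-seq libraries with 25295973 to 49027399 reads counted on genes. Mbd5+/GT mice (5 females, 5 males) carried 1 copy of a gene-trap insertion in an intron of Mbd5, a hypomorphic allele present in every cell, and the WT mice (5 females, 3 males) carried none. The mice came from 3 litters, and litter 2 held 4 Mbd5+/GT mice but 1 WT mouse. The paper reports same-day collection within each tissue type. Whether the regions shared a collection day is not stated in the sources used here, so region and collection day may not be separable. The 35 genes together took between 0.240% and 0.501% of a library's gene reads.

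Glutamate is the main excitatory transmitter of the brain. AMPA receptors carry the fast synaptic current, NMDA receptors pass calcium once the membrane is depolarized and pair an obligatory GluN1 subunit with GluN2 or GluN3 subunits, and kainate receptors tune both sides of the synapse. Metabotropic receptors signal through G proteins, group I mostly postsynaptically to phospholipase C and groups II and III mostly presynaptically as brakes on release. Transmembrane AMPA receptor regulatory proteins (TARPs, the Cacng genes), cornichons and Shisa proteins bind AMPA receptors and set their trafficking and gating.

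Some libraries stood apart from the others of their region in region markers, and results were computed with and without them. In cerebellum, Hoxb5, a gene of the hindbrain and spinal cord, exceeded 1 CPM (counts scaled to the library total) in 4 of 18 libraries, those of Mbd5+/GT mice M755 and M756 and WT mice M754 and M761. The library labelled cerebellum of mouse M755 held 1.76 CPM of Gabra6, a granule cell gene, against 539 to 955 in the other Mbd5+/GT cerebellum libraries, and 1.60 CPM of the Purkinje cell gene Pcp2. In striatum, the dopamine receptor gene Drd2 was under 50 CPM in 5 of 18 libraries (2 WT, 3 Mbd5+/GT), and in cortex it was over 20 CPM in 6 of 18 (4 WT, 2 Mbd5+/GT). The cortical excitatory marker Tbr1 was present in every WT striatum library, at 22.3 to 66.5 CPM, against 62.9 to 163 in WT cortex. In all, 15 libraries stood apart by these limits, which were chosen after the data were seen. In bulk tissue, fewer cells of a type and less RNA per cell cannot be told apart, and this holds for every difference below.

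The largest differences among the 35 genes were between regions. In WT mice, cerebellum was compared with cortex by edgeR's quasi-likelihood test over 19219 genes, of which 34 were members. Region was the only term of the fit, so libraries of the same mouse were not paired in this or the other WT region contrasts. Grm6, the receptor of retinal ON bipolar cells, did not pass the filter of more than 4 counts in at least 8 libraries. It had 1 read in WT cortex, 2 in WT striatum and 0 in WT cerebellum, where a count of 0 over the 8 libraries allows up to 0.0126 CPM, counting error only. In cerebellum, 20 members were lower and 10 higher than in cortex at an adjusted p under 0.05. Of all genes tested, 28.2% were lower and 28.4% higher, so the members stood above that background on the lower side and close to it on the higher side. With a difference of at least 2-fold as well, 14 members were lower and 6 higher, against 15.6% and 8.59% of all genes. The median log2 difference was -0.73 over the 34 members and 0.02 over all genes. Without the libraries that stood apart, 20 were lower and 11 higher, and 29 of the 30 calls remained in the same direction. The share of all genes called in that fit is not given, so these counts have no background beside them.

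**Figure D1:**
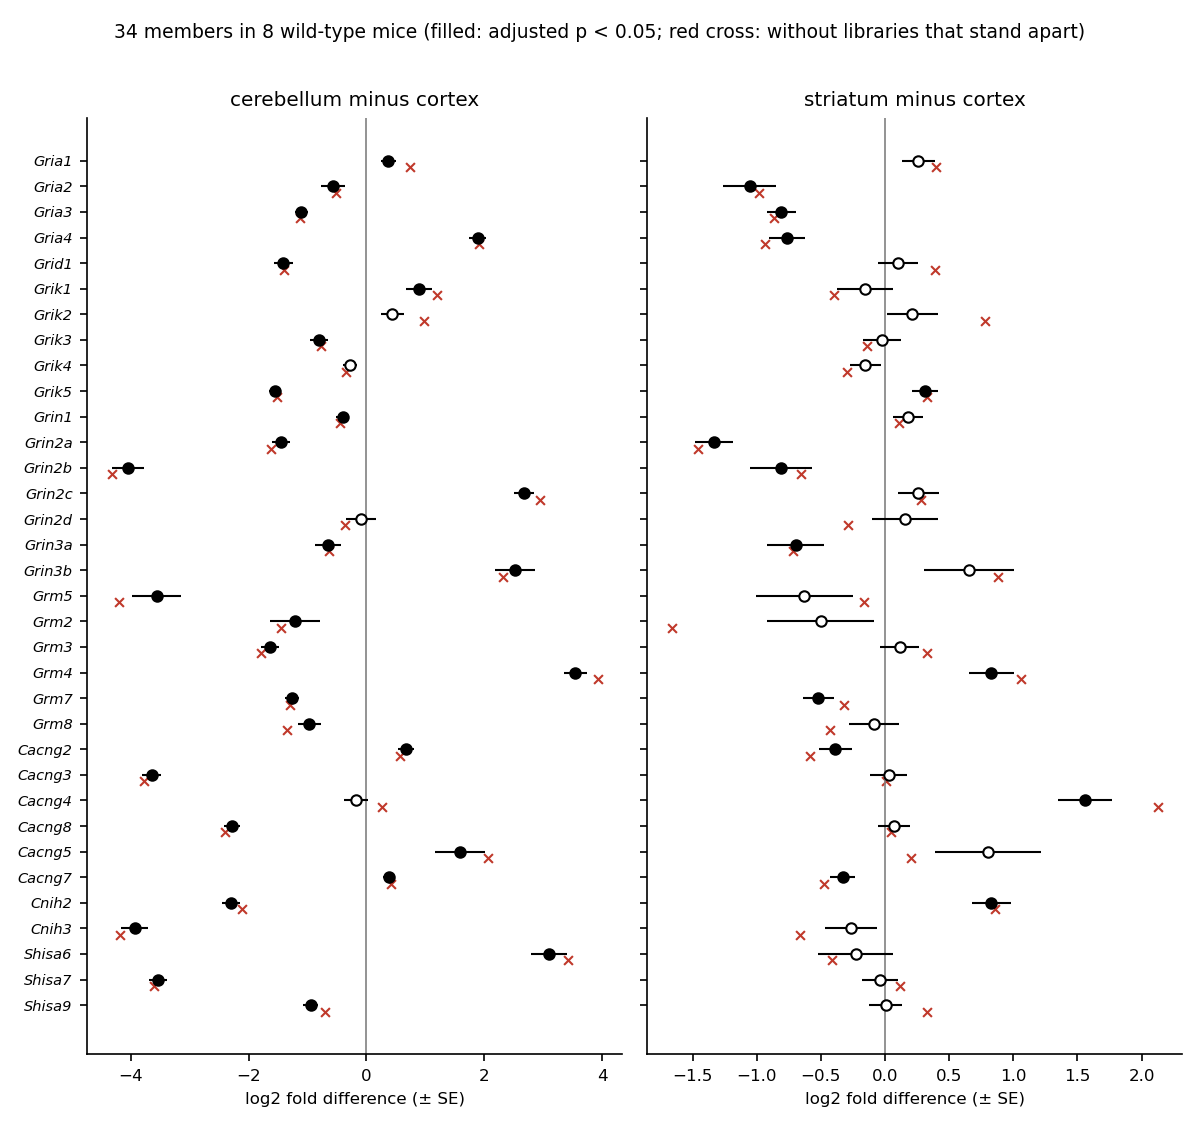
Log2 fold difference (x axis, ± SE) of each of 34 members (y axis) between WT cerebellum and cortex (left) and WT striatum and cortex (right), 8 mice each, with filled points for an adjusted p under 0.05 and red crosses for the value without the libraries that stood apart. The cerebellum panel spans -4.05 (Grin2b) to 3.54 (Grm4), while the striatum panel, on a narrower axis, spans -1.33 (Grin2a) to 1.56 (Cacng4).

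Promoter sequence is given for the members with the largest cerebellum differences among those whose annotated start is the same in RefSeq and GENCODE, 3 that were lower in cerebellum (Cnih3, Shisa7, Cnih2) and 3 that were higher (Grin2c, Gria4, Cacng5). Entries of the RefSeq promoter table of build GRCm38.p6 matched 23 of 35 members, and 9 of these started where GENCODE starts the gene, 8 of them tested. Each line holds the 150 bases before the start, 5′ to 3′ on the gene's strand, with the GC box GGGCGG or its reverse complement CCGCCC in capitals.
Cnih3: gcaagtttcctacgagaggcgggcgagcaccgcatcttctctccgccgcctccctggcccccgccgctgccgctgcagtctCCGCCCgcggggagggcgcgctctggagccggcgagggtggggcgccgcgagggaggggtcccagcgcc
Shisa7: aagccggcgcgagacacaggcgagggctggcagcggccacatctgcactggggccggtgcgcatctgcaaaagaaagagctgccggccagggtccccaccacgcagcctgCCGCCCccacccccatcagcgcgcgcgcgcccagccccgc
Cnih2: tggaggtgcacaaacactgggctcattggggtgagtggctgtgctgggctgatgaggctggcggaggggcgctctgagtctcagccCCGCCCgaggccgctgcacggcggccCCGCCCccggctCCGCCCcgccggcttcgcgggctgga
Grin2c: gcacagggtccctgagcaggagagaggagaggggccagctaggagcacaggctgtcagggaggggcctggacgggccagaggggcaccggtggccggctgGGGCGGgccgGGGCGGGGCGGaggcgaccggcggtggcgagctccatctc
Gria4: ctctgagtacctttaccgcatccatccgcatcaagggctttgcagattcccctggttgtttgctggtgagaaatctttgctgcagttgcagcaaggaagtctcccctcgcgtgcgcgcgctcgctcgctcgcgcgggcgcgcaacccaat
Cacng5: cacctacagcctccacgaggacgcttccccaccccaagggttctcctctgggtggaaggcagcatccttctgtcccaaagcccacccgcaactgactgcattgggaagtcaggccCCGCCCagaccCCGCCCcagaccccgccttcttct
They lie at chr1:181352478-181352627 (plus strand) for Cnih3, chr7:4844697-4844846 (minus) for Shisa7, chr19:5098522-5098671 (minus) for Cnih2, chr11:115267244-115267393 (minus) for Grin2c, chr9:4796235-4796384 (minus) for Gria4 and chr11:107915056-107915205 (minus) for Cacng5.

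Over the 250 bases before the start, the 6 promoters were 58.8% (Gria4) to 76.0% (Cnih3) G or C, where the quartiles of all 32536 promoters searched were 45.2% and 61.2%. They held 12 to 36 CG pairs, against a median of 6. The GC box occurred in 5 of the 6, on both sides of the cerebellum difference, and in 33.0% of all promoters, and overlapping matches were counted separately. Over all members with an entry, 13 of 23 held it, 1 of 23 held TATAAA (12.3% of all promoters), 2 of 23 held CAGATG (14.4%) and 0 of 23 held TGACGTCA (1.6%), each searched on both strands. A member counted if any of its entries matched, whereas the shares of all promoters are per entry. Per entry of the members, 14 of 27 held the GC box, 1 TATAAA, 2 CAGATG and 0 TGACGTCA. A match or its absence in this window describes only these letters.

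Among AMPA subunits, which form the channel itself, Gria4 was higher and Gria3 lower in cerebellum. Gria4 ranged from 320 to 690 CPM (median 562) in the 8 WT cerebellum libraries, from 124 to 177 (median 144) in cortex and from 55.9 to 119 (median 82.6) in striatum, and no 2 regions overlapped. It was 3.70-fold higher in cerebellum than in cortex (log2 difference 1.89, SE 0.14, adjusted p = 4.5e-11). Gria3 went the other way, with 123 to 160 CPM (median 147) in cerebellum against 279 to 345 (median 310) in cortex, and the regions did not overlap (log2 difference -1.11, SE 0.11, adjusted p = 4.8e-09). Gria1 differed less, 292 to 612 CPM (median 560) in cerebellum and 298 to 518 (median 397) in cortex, with overlapping ranges (log2 difference 0.37, SE 0.13, adjusted p = 0.016). Without the libraries that stood apart its log2 difference was 0.73. Gria2, whose edited subunit keeps the channel nearly impermeable to calcium, ranged from 280 to 849 CPM (median 470) in cerebellum and from 536 to 919 (median 755.5) in cortex. Its log2 difference of -0.57 (SE 0.21, adjusted p = 0.022) was lost without the libraries that stood apart (-0.52, adjusted p = 0.12).

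Per length of exon (RPKM), which allows levels of different genes to be set side by side, Gria4 made up 39.7% ± 0.785 (SD, n = 8) of the summed AMPA transcripts in WT cerebellum, 14.0% ± 1.84 in cortex and 10.3% ± 1.71 in striatum. Gria1 made up 38.8% ± 3.94 in cerebellum and 38.8% ± 5.56 in cortex but 59.2% ± 6.07 in striatum. Gria2 took 14.6% ± 3.86 in cerebellum, 28.4% ± 3.36 in cortex and 17.02% ± 3.82 in striatum. The share of Gria4 was thus higher in every cerebellum library (38.9% at the lowest) than in any forebrain library (16.99% at the highest), while the share of Gria1 overlapped between cerebellum and cortex. It was 40.3% ± 2.84 in cerebellum and 35.2% ± 3.74 in cortex once the libraries that stood apart were left out. The summed AMPA level was 218 ± 44.4 RPKM in cerebellum, 167 ± 16.0 in cortex and 130 ± 16.8 in striatum. Shares depended on the length used: with the longest transcript in place of all exons the share of Gria3 in cortex was 26.2% rather than 18.9%. The order of Gria1 and Gria2 in WT cortex depended on it too. Their means were 65.02 and 47.57 RPKM by all exons but 70.85 and 71.31 by the longest transcript.

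**Figure D2:**
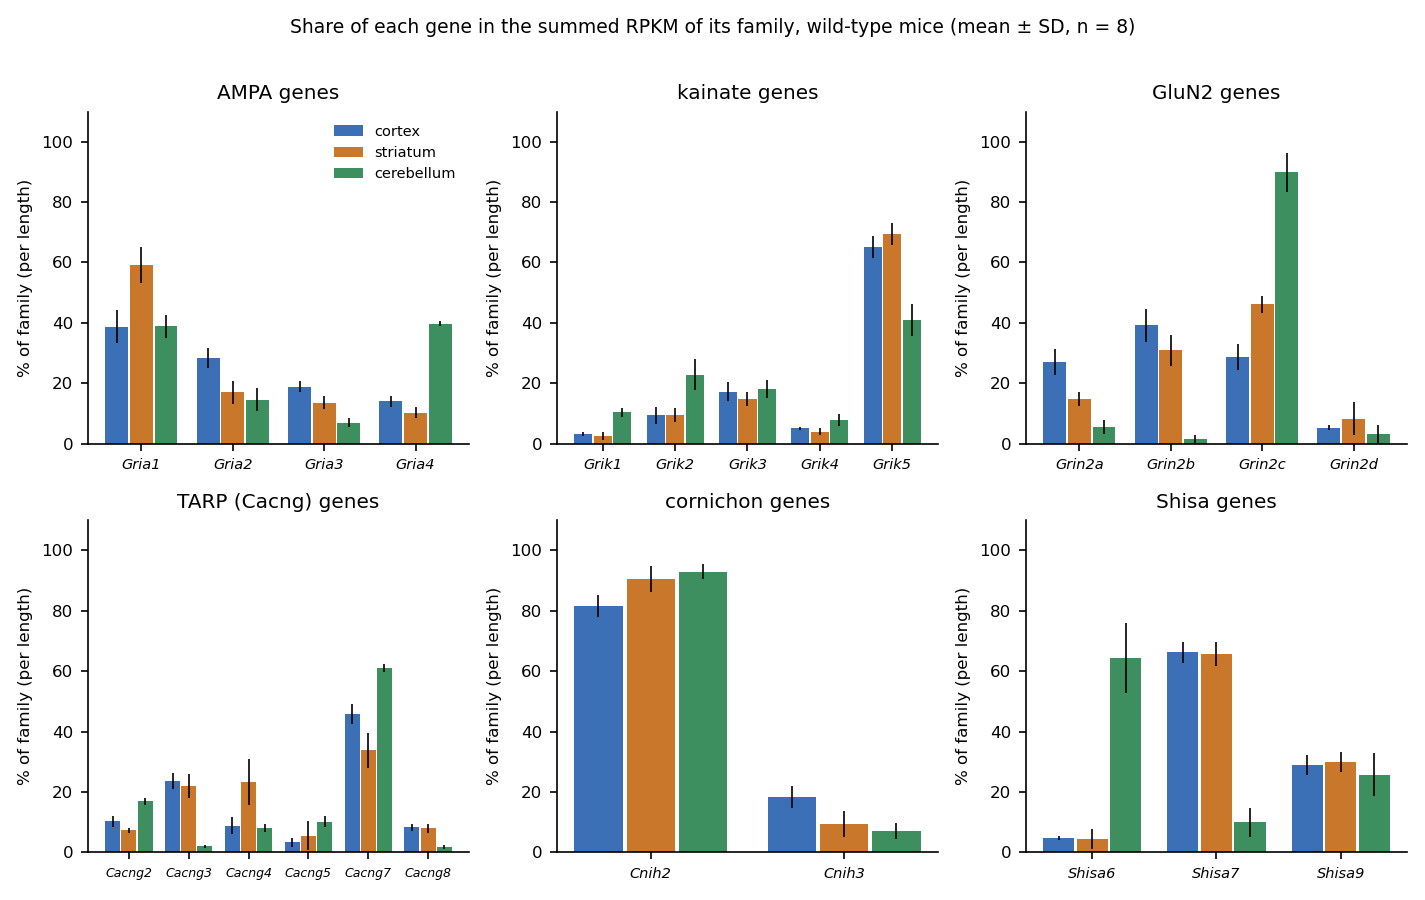
Mean share (y axis, % of the family's summed RPKM, error bars SD, n = 8 WT mice) of each gene (x axis) in 6 families, by region. Grin2c takes 89.8% of GluN2 transcripts and Shisa6 64.3% of Shisa transcripts in cerebellum, against 28.6% and 4.81% in cortex.

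Among NMDA receptor genes, GluN2 subunits differed in opposite directions. Grin2b, the GluN2 subunit that dominates the young forebrain and remains in adult cortex, had 11.7 to 45.7 CPM (median 21.4) in WT cerebellum, 266 to 583 (median 486) in cortex and 146 to 318 (median 253) in striatum. Cerebellum did not overlap either forebrain region, and Grin2b was 16.6-fold lower there than in cortex (log2 difference -4.05, SE 0.27, adjusted p = 4.5e-12). Grin2c, known for its place in cerebellar granule cells, had 160 to 534 CPM (median 447) in cerebellum, 57.8 to 69.2 (median 63.6) in cortex and 62.0 to 96.99 (median 71.6) in striatum. It was 6.36-fold higher in cerebellum than in cortex (log2 difference 2.67, SE 0.17, adjusted p = 2.3e-12), and its 2 lowest cerebellum values belonged to libraries that stood apart, without which the log2 difference was 2.95. Grin2c made up 89.8% ± 6.42 (SD, n = 8) of GluN2 transcripts in cerebellum, 46.2% ± 2.89 in striatum and 28.6% ± 4.31 in cortex, while Grin2b made up 1.52% ± 1.36, 30.9% ± 5.23 and 39.2% ± 5.44. The cerebellum share of Grin2b was 0.860% ± 0.411 without the libraries that stood apart. These shares rest on exon length, which was 24842 bases for Grin2b and 5037 for Grin2c. Undivided by length, Grin2b lay above Grin2c in WT striatum, with means of 247 and 74.6 CPM. The order of these 2 genes in striatum thus depends on the measure.

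The other NMDA subunits had smaller differences, apart from the low-level Grin3b. Grin2a, which replaces Grin2b at many maturing synapses, had 63.9 to 108 CPM (median 73.6) in cerebellum and 162 to 274 (median 217) in cortex without overlap (log2 difference -1.45, SE 0.15, adjusted p = 1.1e-08). The obligatory subunit Grin1 had 287 to 398 CPM (median 359) in cerebellum and 394 to 644 (median 425) in cortex, overlapping in range (log2 difference -0.41, SE 0.12, adjusted p = 0.0045). Grin2d, which is found in interneurons and deep brain nuclei, did not pass the test in any WT region contrast, and its striatum values ran from 9.58 to 34.96 CPM (median 11.8). Of the glycine-binding GluN3 subunits, Grin3a was lower in cerebellum (log2 difference -0.66, SE 0.22, adjusted p = 0.015) and Grin3b was higher (2.52, SE 0.34, adjusted p = 8.6e-07), from 0.185 to 0.766 CPM in cortex and from 1.63 to 4.19 in cerebellum. Grin3b shares 32.1% of its exon bases with Tmem259 on the opposite strand, and Grin1 shares 13.5% with Grin1os. Reads of such pairs cannot be told apart unless the counting used strand, which the sources used here do not state.

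Kainate and delta subunits gave smaller contrasts. Grik5, a high-affinity subunit that needs a partner from Grik1 to Grik3, had 67.2 to 87.5 CPM (median 76.2) in cerebellum, 200 to 257 (median 224) in cortex and 186 to 335 (median 282) in striatum. Cerebellum lay below both other regions without overlap (log2 difference from cortex -1.55, SE 0.10, adjusted p = 3.1e-12). Grik1 was higher in cerebellum than in cortex, 18.6 to 31.9 CPM (median 26.7) against 11.2 to 17.1 (median 13.6), without overlap (log2 difference 0.89, SE 0.22, adjusted p = 0.0012). Grik3 was lower (log2 difference -0.80, SE 0.15, adjusted p = 7.2e-05), and Grid1, a delta subunit that binds cerebellins across the synapse, was lower as well (-1.41, SE 0.16, adjusted p = 3.3e-08). Grik2 and Grik4 did not pass (log2 differences 0.44 and -0.28, adjusted p = 0.064 and 0.055), and both passed once the libraries that stood apart were left out (0.98 and -0.35, adjusted p = 5.4e-05 and 0.049). With the mouse as a block Grik4 passed too (adjusted p = 0.036).

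Metabotropic receptors of group III differed in both directions. Grm4, a group III receptor of parallel fibre terminals in cerebellum, had 193 to 517 CPM (median 459) in cerebellum, 27.01 to 44.0 (median 34.9) in cortex and 37.2 to 93.8 (median 61.3) in striatum. Cerebellum lay above the other regions in all 8 mice (log2 difference from cortex 3.54, SE 0.19, adjusted p = 9.6e-14). The other group III genes measured were lower in cerebellum, Grm7 with 17.4 to 32.5 CPM against 47.5 to 65.2 in cortex (log2 difference -1.27, SE 0.12, adjusted p = 2.9e-09) and Grm8 with 4.78 to 13.4 against 9.82 to 19.1 (-0.97, SE 0.20, adjusted p = 0.00017). Grm5, the group I receptor of forebrain spines, had 4.59 to 48.2 CPM (median 9.36) in cerebellum and 118 to 278 (median 210) in cortex (log2 difference -3.56, SE 0.42, adjusted p = 1e-07). The 2 highest cerebellum values of Grm5 were those of WT mice M754 and M761, whose libraries stood apart, and the log2 difference without them and the cortex libraries that stood apart was -4.20. Of group II, Grm3 had 14.2 to 29.2 CPM in cerebellum and 53.2 to 62.1 in cortex (log2 difference -1.64, SE 0.16, adjusted p = 2.8e-09). Grm2 had 7.30 to 19.3 CPM in cerebellum and 15.2 to 59.9 in cortex, overlapping in range (-1.22, SE 0.42, adjusted p = 0.017).

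**Figure D3:**
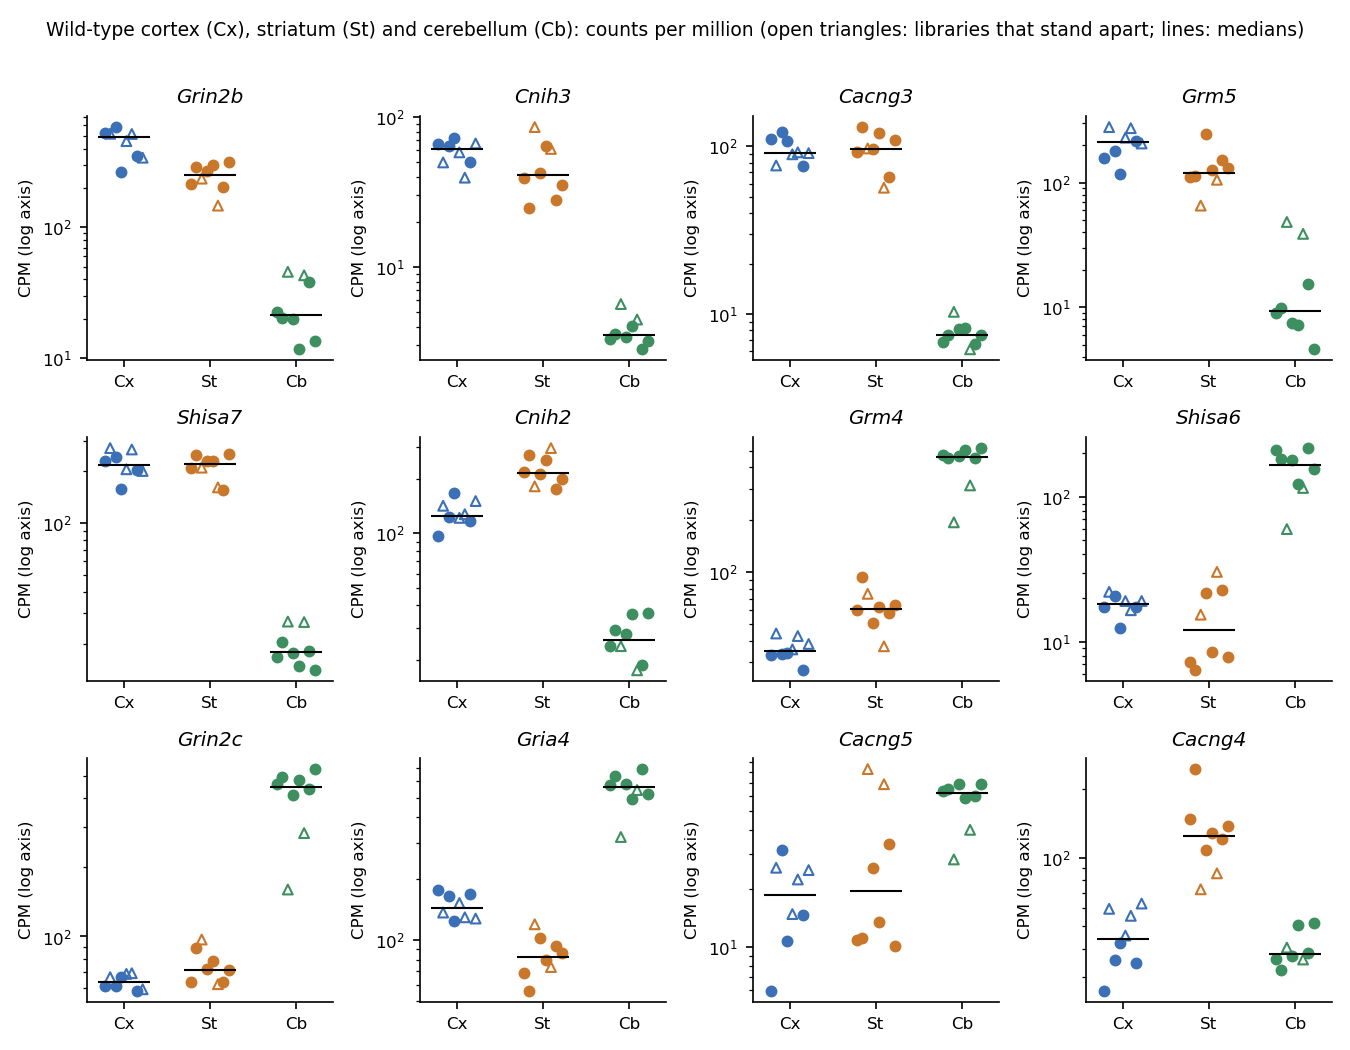
CPM (y axis, log scale) of 12 members in each WT library of cortex (Cx), striatum (St) and cerebellum (Cb), 8 mice a region, with lines at the medians and open triangles for libraries that stood apart. Grin2b, Cnih3, Cacng3, Grm5, Shisa7 and Cnih2 lie lower in cerebellum and Grm4, Shisa6, Grin2c and Gria4 higher, each without overlap with cortex, whereas Cacng5 overlaps and Cacng4 is highest in striatum.

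Auxiliary subunits of AMPA receptors differed in both directions as well. Cnih3 had 2.83 to 5.67 CPM (median 3.50) in cerebellum, 39.5 to 72.0 (median 61.1) in cortex and 24.6 to 85.7 (median 40.8) in striatum, and cerebellum was 15.3-fold below cortex (log2 difference -3.93, SE 0.23, adjusted p = 3.8e-13). Cnih2, which like Cnih3 slows the closing of AMPA channels, had 17.5 to 36.2 CPM (median 25.9) in cerebellum and 96.3 to 166 (median 125) in cortex (-2.30, SE 0.16, adjusted p = 6.7e-12). The summed cornichon level was 20.8 ± 5.11 RPKM (SD, n = 8) in cerebellum, 117 ± 17.4 in cortex and 183 ± 32.9 in striatum. Cerebellum lay below both other regions in every library. Of the TARPs, Cacng3 had 6.17 to 10.3 CPM (median 7.53) in cerebellum and 76.5 to 123 (median 91.7) in cortex (-3.65, SE 0.16, adjusted p = 2.3e-15). Cacng8, the hippocampal and cortical TARP, was 4.87-fold lower in cerebellum (-2.28, SE 0.13, adjusted p = 3.1e-13). Cacng2 (stargazin), needed for AMPA receptors on cerebellar granule cells, was 1.60-fold higher in cerebellum, with 100 to 153 CPM (median 141) against 58.5 to 118 (median 77.2) in cortex (0.67, SE 0.13, adjusted p = 9.9e-05).

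Among type II TARPs, Cacng7 had the highest mean level per length of the 6 Cacng genes in each region, at 87.3 ± 11.5 RPKM in cerebellum, 66.8 ± 4.65 in cortex and 52.1 ± 9.84 in striatum (SD, n = 8). Cacng5 had 28.3 to 69.1 CPM (median 62.0) in cerebellum and 5.91 to 31.7 (median 18.5) in cortex, overlapping in range (log2 difference 1.59, SE 0.42, adjusted p = 0.0024). The summed Cacng level was 143 ± 18.5 RPKM in cerebellum, 146 ± 9.07 in cortex and 155 ± 18.7 in striatum, within the spread between mice. Shisa genes (CKAMPs), which slow the recovery of AMPA receptors from desensitization or bind them at synapses, differed in both directions. Shisa6 had 59.9 to 217 CPM (median 167) in cerebellum and 12.4 to 22.1 (median 18.2) in cortex (3.10, SE 0.31, adjusted p = 6.4e-09). Shisa7 had 14.0 to 26.8 CPM (median 17.8) in cerebellum and 158 to 274 (median 219) in cortex (-3.54, SE 0.15, adjusted p = 1.6e-15), and Shisa9 was 1.93-fold lower in cerebellum (-0.95, SE 0.13, adjusted p = 9.7e-07). Shisa6 made up 64.3% ± 11.6 of Shisa transcripts in cerebellum and 4.81% ± 0.537 in cortex, and its lowest cerebellum share, 39.5%, still exceeded the highest in cortex, 5.34%.

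Cerebellum against striatum gave 17 members lower and 9 higher at an adjusted p under 0.05, where 34.3% and 32.0% of all genes tested were called. At 2-fold or more, 11 were lower and 7 higher, against 17.4% and 12.0%. The comparisons with cortex and with striatum share the cerebellum libraries, so they are not independent of each other. In this contrast Cacng4 was lower in cerebellum in all 8 mice (log2 difference -1.73, SE 0.21, adjusted p = 1.1e-07) and Cacng2 was higher in all 8 (1.06, SE 0.13, adjusted p = 1.6e-07), neither overlapping. Without the libraries that stood apart 24 of the 26 calls remained, and those of Gria2 and Gria3 did not (adjusted p = 0.11 and 0.077), while Gria1 passed as higher in cerebellum (0.34, adjusted p = 0.0029, against 0.11 and 0.44 with them). Gria2 had a log2 difference of 0.49 (adjusted p = 0.039) that did not pass with the mouse as a block (0.44, adjusted p = 0.072), and it was higher in cerebellum in 4 of 8 mice. Cacng5 had a log2 difference of 0.78 (adjusted p = 0.096) that passed with the block (1.19, adjusted p = 0.023) and without the libraries that stood apart (1.86, adjusted p = 0.00017).

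Striatum and cortex differed less. In striatum, 9 members were lower and 4 higher than in cortex at an adjusted p under 0.05, against 23.8% and 25.3% of all genes tested, and the share of members higher was below the background. At 2-fold or more there were 2 lower (Gria2 and Grin2a) and 1 higher (Cacng4), against 5.71% and 4.47% of all genes. Cacng4, a TARP found in striatum and in the developing brain, had 72.7 to 244 CPM (median 125) in striatum and 26.02 to 63.0 (median 44.0) in cortex. It was higher in striatum in all 8 mice without overlap (log2 difference 1.56, SE 0.21, adjusted p = 1.1e-05). Cnih2 was also higher without overlap, 177 to 297 CPM (median 216) against 96.3 to 166 (0.83, SE 0.15, adjusted p = 0.00019). Grm4 was higher in 7 of 8 mice (0.83, SE 0.18, adjusted p = 0.00066).

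Lower in striatum were Grin2a, 49.0 to 111 CPM (median 84.4) against 162 to 274 in cortex (-1.33, SE 0.15, adjusted p = 3e-06), Gria3 (-0.81, SE 0.11, adjusted p = 1.2e-05) and Gria4 (-0.77, SE 0.14, adjusted p = 0.00019), each in all 8 mice without overlap. Gria2 had 239 to 634 CPM (median 334) in striatum and 536 to 919 in cortex, with mouse M757 alone reaching into the cortical range (-1.06, SE 0.21, adjusted p = 0.00034). Grin2b (-0.81), Grin3a (-0.70), Grm7 (-0.52), Cacng2 (-0.39) and Cacng7 (-0.33) were lower and Grik5 (0.31) higher with overlapping ranges. These calls moved with the libraries that stood apart. Without them, 9 members were higher and 11 lower, and the calls of Grin2b (adjusted p = 0.062) and Grik5 (adjusted p = 0.057) were lost. Gria1, Grid1, Grik2, Grin2c, Grin3b and Grm3 then passed as higher and Grm2, Grm8 and Cnih3 as lower. The share of all genes called in that fit is not given, so neither count can be set against a background. Striatum and cortex libraries were left out by their Drd2 level, which tends to widen this contrast for genes that go with or against Drd2. Of the new calls, Grid1, Grik2, Grm3, Grm2, Grm8 and Cnih3 went with or against Drd2 in striatum, as given below. Grm2 changed most, from -0.50 (adjusted p = 0.33) to -1.66 (adjusted p = 0.00087), and its highest WT striatum value, 82.1 CPM, was that of mouse M754, whose striatum library held 2.76 CPM of Drd2.

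The spread within a region was followed along Drd2, a gene of striatal projection neurons, over the 18 libraries of each forebrain region. It ran from 2.76 to 212 CPM in striatum and from 1.13 to 42.8 in cortex. This relation was examined after the data were seen. A relation was counted where the Pearson and the Spearman coefficient both had an adjusted p under 0.05 (100000 permutations, Benjamini-Hochberg over all genes tested in the region). In striatum 4 of 34 members (Grid1, Grik2, Grm3 and Cacng4) went with Drd2 and 5 (Grik1, Grin3a, Grm2, Grm8 and Cnih3) against it, where 4.90% and 3.25% of all genes did. In cortex 1 member (Cacng4) went with it and 1 (Grm2) against it, where 1.83% and 0.884% of all genes did. Cacng4 had r = 0.77 and rho = 0.93 in striatum (permutation, adjusted p = 0.0029 and 0.00071), r = 0.97 without the 2 libraries farthest from the median of Drd2, and r = 0.85 and 0.70 within litters 1 and 3. In cortex it had r = 0.81 and rho = 0.85 (permutation, adjusted p = 0.0042 and 0.0040), r = 0.91 without the 2 farthest libraries, and 0.94 and 0.75 within litters 1 and 3. Grm2 went against Drd2 in both, with r = -0.80 and rho = -0.78 in striatum (permutation, adjusted p = 0.0013 and 0.0066) and r = -0.75 and rho = -0.76 in cortex (permutation, adjusted p = 0.014 and 0.023), and r was -0.78 and -0.66 without the 2 farthest. Within litters 1 and 3 its r in cortex was -0.57 and -0.83. In striatum its r was -0.08 within litter 1 and -0.94 within litter 3, so it did not hold within litter 1. Grik1 had r = -0.83 and rho = -0.94 in striatum (permutation, adjusted p = 0.0013 and 0.00071), r = -0.92 without the 2 farthest libraries and -0.99 and -0.81 within litters 1 and 3. Litter 2, with 5 mice, was too small for a coefficient. The makeup of the tissue pieces and expression per cell cannot be told apart here.

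**Figure D4:**
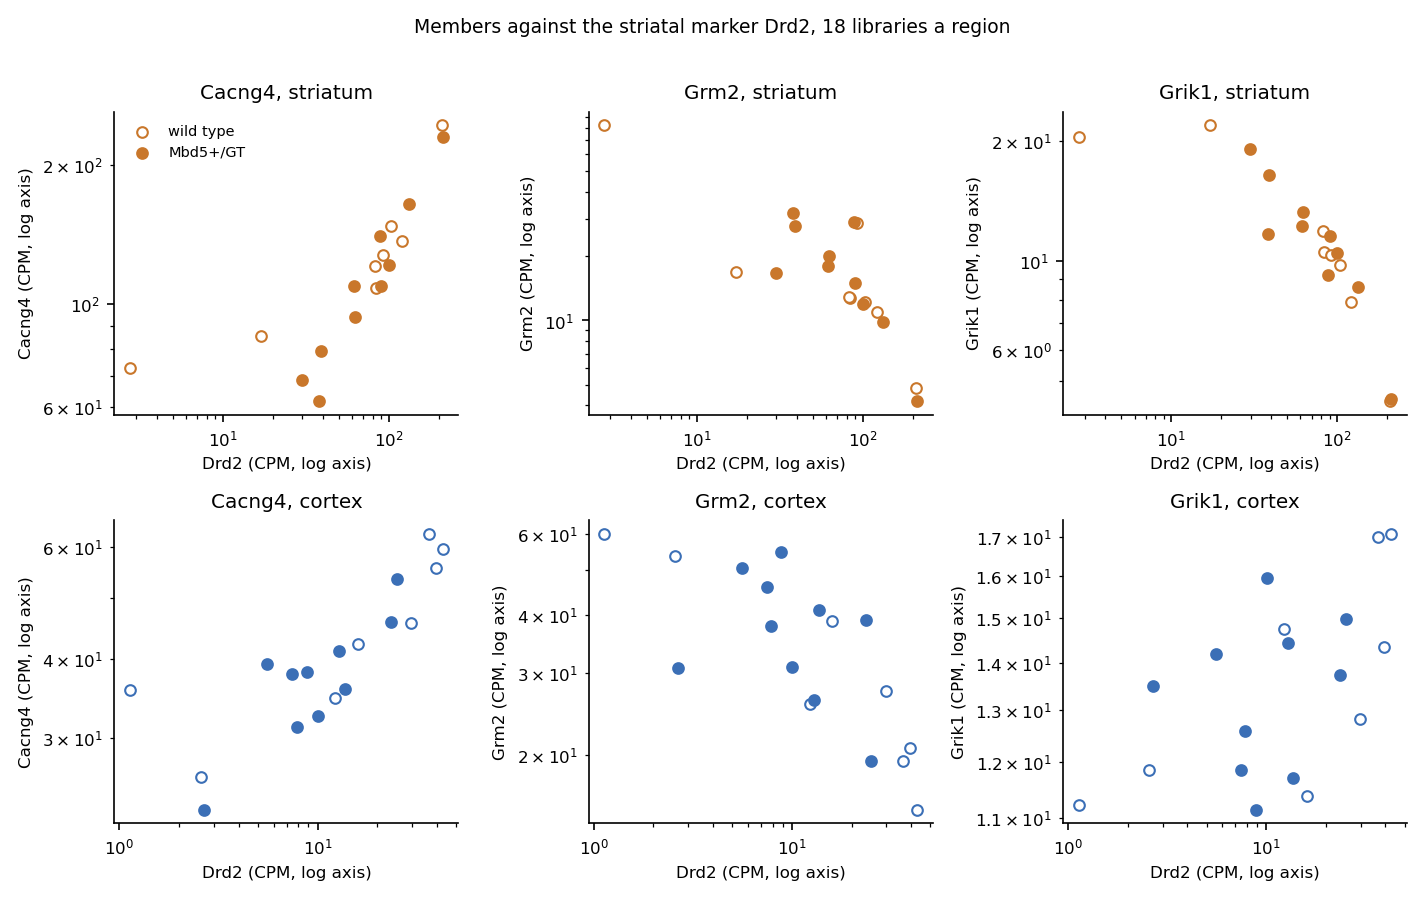
CPM of Cacng4, Grm2 and Grik1 (y axes, log scale) against CPM of Drd2 (x axes, log scale) in the 18 striatum libraries (top) and 18 cortex libraries (bottom), open for WT and filled for Mbd5+/GT. Cacng4 climbs with Drd2 in both regions and Grm2 declines, while Grik1 declines in striatum and its relation in cortex (r = 0.55, permutation, adjusted p = 0.17) did not pass.

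Mbd5, the targeted gene, was lower in Mbd5+/GT mice in each region. In cortex it had 40.6 to 53.0 CPM (median 45.8) in Mbd5+/GT and 47.7 to 75.6 (median 68.0) in WT libraries (log2 difference -0.49, SE 0.05, adjusted p = 0.00012). Striatum gave -0.51 (adjusted p = 9.4e-05), and the difference in cerebellum was -0.34 (adjusted p = 0.0091). Without surrogate variables the differences were -0.51, -0.43 and -0.39 in cortex, striatum and cerebellum, and the adjusted p by edgeR over all genes rose to 0.057, 0.83 and 1. The call in cortex was lost without the libraries that stood apart too (-0.39, adjusted p = 0.45).

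No member changed with genotype at an adjusted p under 0.05 in any region. edgeR's quasi-likelihood test with surrogate variables called 0 of 34 members in cortex, striatum and cerebellum, where 0.0107%, 0.00539% and 0.00551% of all genes were called, and DESeq2 called 0 as well. Members reached adjusted p-values no smaller than 0.45 (cortex), 0.63 (striatum) and 1 (cerebellum). Their standard errors had medians of 0.07 (cortex), 0.10 (striatum) and 0.07 (cerebellum) on the log2 scale. At an unadjusted p under 0.05 there were 4 members in cortex (5 by DESeq2), 4 in striatum (4 by DESeq2) and 2 in cerebellum (2 by DESeq2). Only members under this threshold by edgeR were given an exact permutation test, on the same libraries. It used no surrogate variables, ignored litter and was not adjusted over members. Its p-values are therefore no independent evidence for the members chosen.

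In cortex all 4 were lower in Mbd5+/GT mice and 0 were higher, against 4.51% and 3.96% of all genes tested. Shisa9 had 53.5 to 81.9 CPM (median 61.7) in Mbd5+/GT and 53.5 to 98.7 (median 81.4) in WT libraries, with overlapping ranges (log2 difference -0.22, SE 0.08, unadjusted p = 0.012, adjusted p = 0.45 by edgeR, exact permutation p = 0.13 two-sided over all 43758 splits). Grm5 had 129 to 224 CPM (median 178) against 118 to 278 (median 210) in WT (-0.16, SE 0.06, adjusted p = 0.5, exact permutation p = 0.16), and 9 of 10 Mbd5+/GT libraries were under the mean of the WT ones. Cacng3 (-0.19, adjusted p = 0.5, exact permutation p = 0.32) and Cacng4 (-0.20, adjusted p = 0.53, exact permutation p = 0.21) overlapped as well. The cortex libraries with much Drd2 were mostly WT, 4 of 8 WT against 2 of 10 Mbd5+/GT, and Cacng4 went with Drd2 over the cortex libraries. Shisa9 (r = 0.23), Grm5 (r = 0.38) and Cacng3 (r = -0.32) did not pass against Drd2 there (permutation, adjusted p = 0.70, 0.42 and 0.53). Without the libraries that stood apart 0 of the 4 passed, and the differences were -0.03 (Shisa9), -0.02 (Grm5), -0.14 (Cacng3) and -0.10 (Cacng4). That fit held 4 WT and 8 Mbd5+/GT libraries with 4 surrogate variables, and the adjusted call of Mbd5 was lost in it too. The part of Drd2-rich tissue in the result was not tested further.

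In striatum 3 members were higher in Mbd5+/GT mice and 1 lower, against 4.24% and 3.20% of all genes tested. Gria3 had 159 to 297 CPM (median 198) in Mbd5+/GT and 121 to 246 (median 170) in WT libraries (0.18, SE 0.07, adjusted p = 0.63, exact permutation p = 0.044), and 9 of 10 Mbd5+/GT mice lay above the WT mean. Grm7, the most widely spread group III receptor, had 38.5 to 53.0 CPM (median 47.9) against 29.3 to 51.3 (median 41.1) (0.15, SE 0.06, adjusted p = 0.63, exact permutation p = 0.020), with 9 of 10 above. Gria4 had 81.1 to 131 CPM (median 98.7) against 55.9 to 119 (median 82.6) (0.16, SE 0.07, adjusted p = 0.64, exact permutation p = 0.062). Genotypes overlapped for each of them. The count of 9 of 10 above the WT mean was also reached by Gria2, Grin2a and Grm5, which did not pass the unadjusted threshold. By litter (1, 2, 3) the differences on the log2 scale came to 0.45, 0.10 and 0.42 for Gria3, 0.48, 0.02 and 0.22 for Grm7 and 0.54, -0.0041 and 0.37 for Gria4, where litter 2 rests on 1 WT mouse. Without the libraries that stood apart Gria4 remained past the unadjusted threshold (0.23, SE 0.06) and Gria3 (0.13, SE 0.09) and Grm7 (0.09, SE 0.06) did not. Without the 2 WT striatum libraries labelled as repeats none of the 3 passed. Cacng5 had 7.99 to 45.8 CPM (median 11.5) in Mbd5+/GT and 10.1 to 82.6 (median 19.5) in WT libraries (-0.46, SE 0.20, adjusted p = 0.64, exact permutation p = 0.22). Its difference was -0.37 (SE 0.19) without the libraries that stood apart and -0.86 (SE 0.47) without surrogate variables, neither past the unadjusted threshold. Cnih2 (-0.17, SE 0.07) and Grin2a (0.17, SE 0.08) passed that threshold by edgeR with the libraries that stood apart left out.

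In cerebellum 2 members were lower and 0 higher, against 1.78% and 0.964% of all genes tested. Cacng4 had 27.3 to 44.9 CPM (median 34.5) in Mbd5+/GT and 32.2 to 51.7 (median 37.7) in WT libraries (-0.22, SE 0.06, unadjusted p = 0.0020, adjusted p = 1 by edgeR, exact permutation p = 0.14), with 8 of 10 below the WT mean. Cnih3 had 1.95 to 9.53 CPM (median 2.64) against 2.83 to 5.67 (median 3.50) (-0.27, SE 0.11, adjusted p = 1, exact permutation p = 0.27), and the highest value was that of mouse M755. The count of 8 of 10 below the WT mean was also reached by Cnih3 and by Grin2d, Grm5, Grm3, Grm8 and Cacng8. Of these only Cnih3 passed the unadjusted threshold. Without the libraries that stood apart the differences were -0.24 (SE 0.06) for Cacng4 and -0.44 (SE 0.10) for Cnih3. Within litters 1, 2 and 3 Cnih3 differed by -0.50, -0.41 and 0.27, and litter 3 held mouse M755. The remaining members differed by -0.22 to 0.18 in cortex, -0.22 to 0.22 in striatum and -0.27 to 0.14 in cerebellum.

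**Figure D5:**
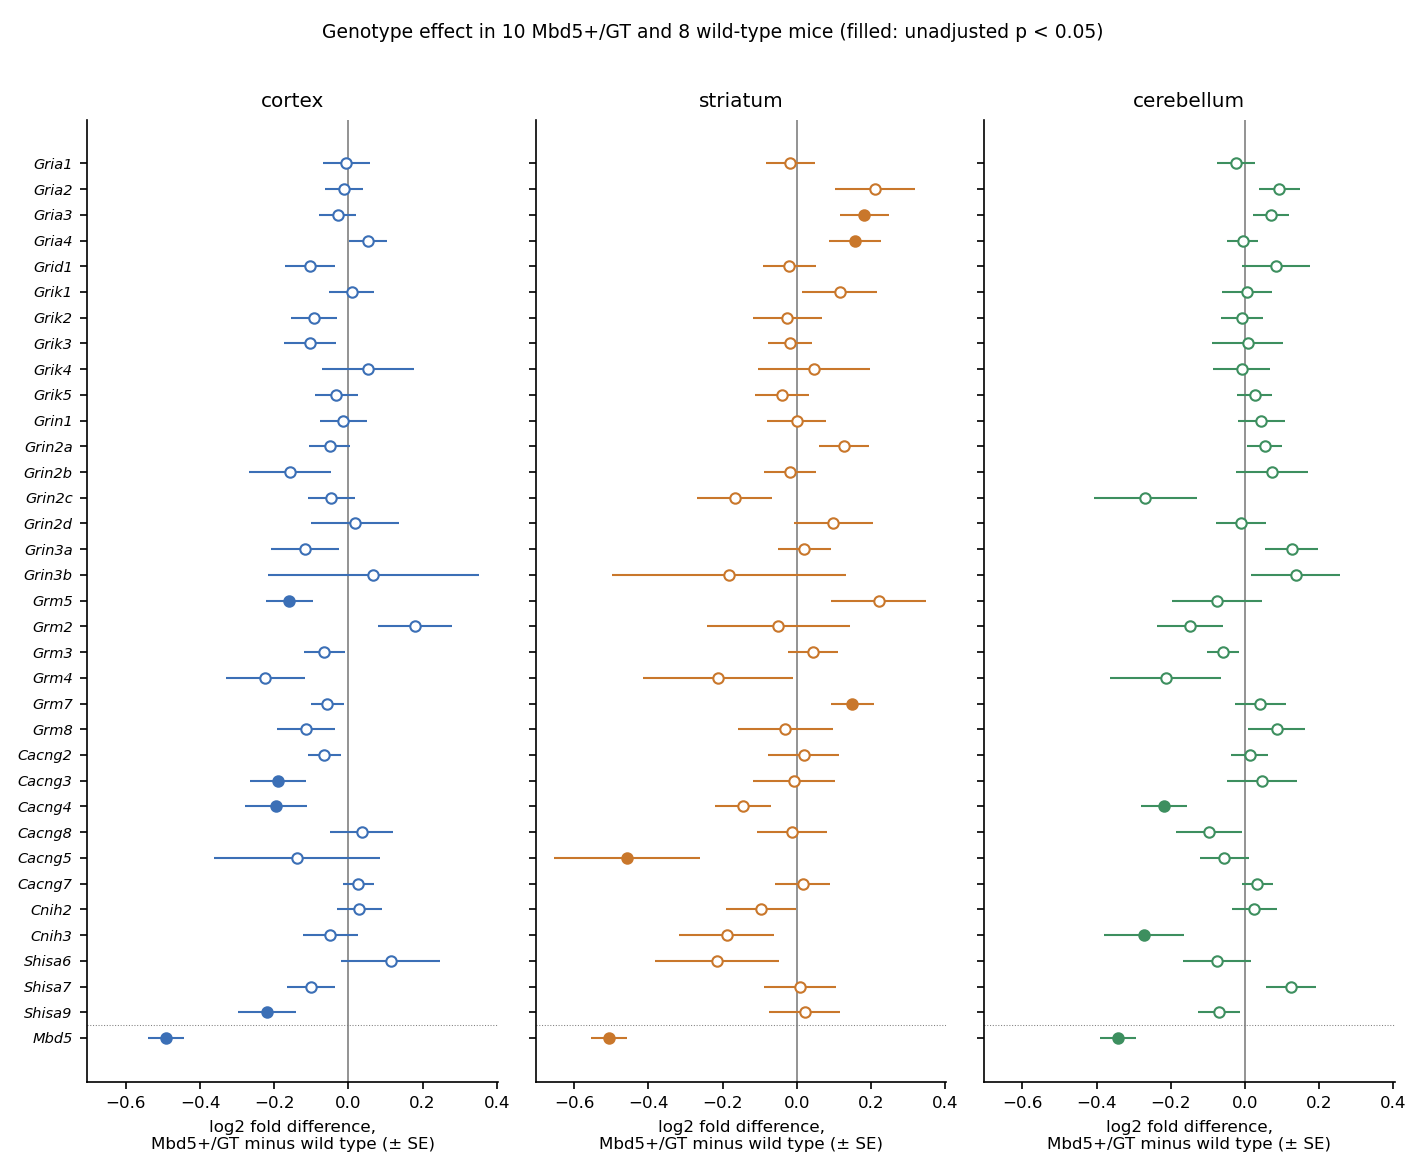
Log2 fold difference between Mbd5+/GT and WT mice (x axis, ± SE) of 34 members and Mbd5 (y axis) in cortex, striatum and cerebellum (10 and 8 mice), filled where the unadjusted p was under 0.05. Every member lies within 0.46 of 0, and Mbd5 at -0.49, -0.51 and -0.34.

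Genotype effects of members were not shown to differ between regions. In the test of the difference itself over 54 libraries without surrogate variables, 0 of 34 members had an adjusted p under 0.05 by edgeR or DESeq2. At an unadjusted p under 0.05 there was 1 member for striatum against cortex, Shisa9 (log2 difference of effects 0.33, SE 0.16, unadjusted p = 0.045 and adjusted p = 0.99 by edgeR), 0 for cerebellum against cortex and 0 for cerebellum against striatum, where 4.22%, 1.11% and 2.68% of all genes passed (DESeq2 gave 0, 0 and 0 members).

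A list of 36 other genes of the glutamate synapse (transporters, scaffolds, receptor partners) was tested in the same fits. In WT cerebellum 22 of 36 were lower and 8 higher than in cortex, against 28.2% and 28.4% of all genes. In striatum 16 were lower and 4 higher than in cortex, against 23.8% and 25.3%, and in cerebellum 17 were lower and 9 higher than in striatum, against 34.3% and 32.0%. The largest differences from cortex in cerebellum were those of the kinase Camk2a, 88.5 against 3038 CPM (log2 difference -5.11, SE 0.15, adjusted p = 1.2e-18), the scaffold Homer3, 293 against 8.67 CPM (5.07, SE 0.23, adjusted p = 4.6e-15), and the pentraxin Nptx2, 1.48 against 49.9 CPM (-5.06, SE 0.28, adjusted p = 2e-13). From striatum they were Nptx2 (-5.01), Homer3 (4.47) and the Purkinje cell glutamate transporter Slc1a6 (4.41). In striatum against cortex they were the scaffolds Homer2 (-1.31), Dlg2 (-1.26) and Shank1 (-1.10). With genotype, 0 of 36 passed at an adjusted p under 0.05. At an unadjusted p under 0.05, 6 were lower and 1 (Nptx1) higher in cortex, against 4.51% and 3.96% of all genes, and 0 in striatum and cerebellum.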

How the data were processed

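RNA-seq libraries of 3 regions of 18 mice were grouped by genotype and region from the labels. The submitters' processing notes name STAR 2.4.2, FastQC 0.10.1 and GRCm38, and the authors deposited whole-number read counts per Ensembl gene, not normalized. The strand setting is not given in the sources used here. Totals ran from 25295973 to 49027399, which left the spread between mice as the limit for genes above a few counts. The 92 ERCC spike-ins (0.0207% to 0.728% of counts) were left out. Gene names and union exon lengths came from GENCODE vM21, which matched 46574 of 47069 identifiers. The authors' Ensembl release differs, which can shift RPKM but not tests.

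Genes were kept where 8 or more libraries exceeded 4 counts, TMM-normalized and fitted with edgeR 4.0.16 (quasi-likelihood, R 4.3.3), with Benjamini-Hochberg adjustment over all genes and SE taken as the log2 difference over the square root of F. WT regions were compared over 24 libraries, and genotype within each region with surrogate variables (sva 3.50.0, 4 in cortex, 4 in striatum, 2 in cerebellum). Members with an unadjusted p under 0.05 in a region's fit were tested by exact permutation of log2(CPM + 0.01), the scale also used for relations with Drd2. DESeq2 1.42.0 and the other alternatives are described with their effects. Scripts were tested on simulated data. CPM are TMM-scaled over 54 libraries. Named genes were all members, Mbd5 and the 3 largest called differences of other glutamate genes per WT contrast. Members and lists were chosen with earlier results of these data known. Libraries that stood apart were defined by Hoxb5 over 1 CPM in cerebellum and Drd2 under 50 CPM in striatum or over 20 CPM in cortex, and the fits without them were added after seeing the data. Other alternatives were DESeq2, other filters, no surrogate variables, litter and sex as covariates, the mouse as a block, and fits without litter 2 or without the 2 striatum libraries labelled as repeats.

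Same-numbered libraries came from the same mouse. Their deviations from group means correlated over genes with a median r, across 18 mice, of 0.22 (cerebellum with cortex), 0.09 (striatum with cortex) and 0.08 (cerebellum with striatum). Chi-square per gene between libraries of a group was at least 8.85 over 219 pairs, where counting error alone gives about 1, so no pair was treated as repeats of 1 library. Each pair was of different mice, so this does not bear on libraries of the same mouse. The main fits of WT regions and of genotype effects between regions had no term for the mouse. Fits with the mouse as a block were alternatives.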

Additional observations from a re-analysis of the deposited data

Results flagged for a closer look

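In groups of 8 or 10 libraries, 1 library of a member can lie far from all others of its group (Dixon's criterion). Of 203 member groups tested 32 held such a library, where chance gives about 1 in 20, and 28 of the 32 were in libraries that stood apart in region markers. The groups share libraries and are not independent. The share of such groups over all genes is not given, so the 32 cannot be read as particular to the members.

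The library labelled cerebellum of Mbd5+/GT mouse M755 gave 21 of them. It was the highest of 10 for Grid1 (50.02 CPM), Grik4 (28.1), Grin2b (63.6), Grin2d (37.2), Grin3a (75.4), Grin3b (5.61), Grm5 (79.6), Grm3 (31.2), Grm7 (46.2), Grm8 (14.0), Cacng3 (20.1), Cacng8 (11.8), Cnih3 (9.53) and Shisa7 (42.2). It was the lowest for Gria1 (183 CPM, next 473), Gria4 (217), Grik1 (16.2), Grin2c (27.4, next 347), Grm4 (40.2, next 380), Cacng5 (15.2) and Cacng7 (166). These are the CPM values beside its 1.76 CPM of Gabra6 and 84.0 CPM of Hoxb5.

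The cerebellum library of WT mouse M754 was the highest of 8 for Grid1 (37.7 CPM), Grin2d (28.7), Grin3b (4.18) and Grm8 (13.4). In WT striatum, mouse M757 was highest for Gria2 (634 CPM), mouse M754 for Grm2 (82.1) and mouse M752 for Cacng4 (244), and mouse M761 was lowest for Shisa9 (46.2). In Mbd5+/GT striatum, mouse M764 was highest for Grm4 (105 CPM). In cortex, WT mouse M752 was highest for Grin3b (0.766 CPM) and Mbd5+/GT mouse M755 for Shisa6 (36.8).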

How the results depend on the processing

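Of 621 alternative values of the called differences between WT regions, 621 kept their direction and 600 stayed past the threshold. With the mouse as a replicate block, 10 members were higher and 21 lower in cerebellum than in cortex, and beside the calls of Gria2, Grik4 and Cacng5 given above, Grm8 reaching 2-fold in cerebellum against cortex (-1.03), and Shisa9 between striatum and cortex by genotype (unadjusted p = 0.077), where Gria3 passed instead (0.046), it changed no other call on all libraries. With the block and without the libraries that stood apart together, 59 of 69 called WT differences stayed past the threshold, and the 10 that did not were Gria2 in all 3 contrasts, Grik3 and Grin3a in cerebellum against cortex, Grik5, Grin2b, Grin3a and Grm7 in striatum against cortex, and Gria3 in cerebellum against striatum. Mbd5 kept a lower value in every alternative (-0.56 to -0.29), but its adjusted call was also lost with litter and sex as covariates in each region and without litter 2 in striatum and cerebellum. For striatum against cortex, members higher at 2-fold were 2 without the repeated libraries and 2 without those that stood apart (9 higher at any fold there), and members lower at 2-fold were 1 with all 54 libraries and 1 without the repeats. Shares of all genes called are given only for the main fits, so no count of members in this section has a background beside it. Genotype counts at unadjusted p moved most. In cortex, members lower fell from 4 to 0 with no surrogate variables, with covariates for litter and sex, with no filter, and without libraries that stood apart with or without surrogate variables. Members higher in cortex were 1 with no filter, 2 with 10 counts required in every library and 3 without litter 2. In striatum, members higher were 5 with litter and sex, 1 with 10 counts in every library, 1 without litter 2, 0 without the repeats and 0 without libraries that stood apart and surrogate variables, and members lower were 0 without surrogate variables, 2 with 10 counts in every library and 0 without libraries that stood apart and surrogate variables. In cerebellum, members lower were 0 without surrogate variables, 0 with litter and sex, 0 without litter 2, and 1 without libraries that stood apart and surrogate variables. Without libraries that stood apart and surrogate variables 2 cortex values reversed, Grm5 to 0.0493 and Cacng4 to 0.0184. The interaction of striatum and cortex gave 0 by DESeq2 and 0 with no filter, and cerebellum against striatum gave 1 without litter 2. The causes were not tested. Members at an adjusted p stayed at 0 in every alternative of the genotype and interaction tests. With the longest transcript as length, 17 of 72 family shares moved by over 1 SD, and DESeq2 size factors moved 0 of 105 levels. Grin3b had 3 to 36 counts a library in forebrain, where counting error adds to the spread.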
